A study of Mus musculus with 6 samples.

Results

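The genes described here are the nuclear genes for subunits of the oxidative phosphorylation complexes in mouse cervical spinal cord. They were chosen by symbol, as the protein-coding genes whose names start with Ndufa, Ndufb, Ndufc, Ndufs or Ndufv for complex I (leaving out the Ndufaf assembly factors), Sdha to Sdhd for complex II, Uqcr and Cyc1 for complex III, Cox4 to Cox8 for complex IV and Atp5 for complex V. The rule found 87 of the 54532 gene identifiers in the files, with 38 in complex I, 4 in complex II, 9 in complex III, 18 in complex IV and 18 in complex V.

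RNA was taken from cervical spinal cords of 3 C57BL/6 mice with allergic contact dermatitis (ACD) and 3 control mice of the same strain, 1 library each. For ACD, 20 µl of 1% squaric acid dibutylester (SADBE), a contact allergen, dissolved in acetone, was put on shaved nape skin on 3 days. Control mice had acetone alone. The protocol puts 20 µl of 1% SADBE on the abdomen on 3 days, 5 days before the nape treatment, and does not make clear whether the control mice received that sensitising step too. The sources used here give no age, sex or day of dissection. The comparison asked whether the level of these transcripts in the cord differed between mice with inflamed nape skin and mice given the vehicle.

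Complexes I to IV form the electron transport chain of the inner mitochondrial membrane. Complexes I and II pass electrons from NADH and succinate to ubiquinone, complex III passes them on to cytochrome c and complex IV to oxygen. The protons pumped by complexes I, III and IV drive complex V, the ATP synthase, and in nervous tissue this route supplies most of the ATP that ion pumps and synapses use. Most subunits are encoded in the nucleus and imported, while a small group in every complex except complex II is encoded in mitochondrial DNA.

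Many of these genes have been described as targets of the transcription factors NRF1, GABP (an ETS family factor) and YY1. RefSeq promoter windows of GRCm38.p6, 250 bases before to 50 after the start, were found for 67 of the subunit genes and searched on both strands. The NRF1 motif was searched as GCGC blocks on either side of any 2 bases, and its letters were in 28.4% of the 67 windows, against 10% of the windows of all 16514 protein-coding genes in the table. The ETS letters CCGGAAG were in 23.9% of the subunit windows, against 13.4% of the protein-coding windows, and the YY1 letters AAGATGG were in 14.9% against 7.27%. The 3 motifs do not contain each other, and a match describes letters only. Of the 8 genes that passed the test of ACD against control, 7 had a window. NRF1 letters were in 3 of these 7, ETS letters in 2 and YY1 letters in 0. The 250 bases before the start are shown for 3 of the genes that passed, to set side by side a promoter with several NRF1 matches, a promoter with 1 and a promoter with none. Capitals mark the NRF1 letters, and each stretch runs 5′ to 3′ on the strand of the gene.
Cox6a1: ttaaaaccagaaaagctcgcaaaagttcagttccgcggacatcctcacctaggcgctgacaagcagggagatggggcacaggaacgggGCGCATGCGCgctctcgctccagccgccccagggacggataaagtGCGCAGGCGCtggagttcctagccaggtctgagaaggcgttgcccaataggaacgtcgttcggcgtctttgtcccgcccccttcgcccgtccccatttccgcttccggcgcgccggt
Ndufa11: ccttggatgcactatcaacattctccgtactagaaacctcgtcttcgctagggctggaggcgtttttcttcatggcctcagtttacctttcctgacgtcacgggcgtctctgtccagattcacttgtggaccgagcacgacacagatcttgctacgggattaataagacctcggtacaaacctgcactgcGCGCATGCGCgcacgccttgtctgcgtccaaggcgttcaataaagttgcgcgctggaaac
Atp5g1: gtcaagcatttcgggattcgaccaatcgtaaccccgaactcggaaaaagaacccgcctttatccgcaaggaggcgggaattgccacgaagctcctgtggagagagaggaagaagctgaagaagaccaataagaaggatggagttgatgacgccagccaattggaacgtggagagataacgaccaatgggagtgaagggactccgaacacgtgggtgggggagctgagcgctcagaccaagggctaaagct
The Cox6a1 stretch is chr5:115348959-115349208 on the minus strand and holds 2 NRF1 matches, the farther of which begins 162 bases before the start. The Ndufa11 stretch is chr17:56717512-56717761 on the plus strand, and its match begins 60 bases before the start. The Atp5g1 stretch is chr11:96075632-96075881 on the minus strand, and its window holds none of the 3 motifs. All 3 genes were higher in ACD cords, with the values given under their complexes.

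Expression was measured as FPKM (fragments per kilobase of exon at a common library size), a level per length, so that levels of different genes can be set side by side. Reads recovered from the steps between low FPKM values summed to 18525470 to 21487888 per library in ACD and 16517311 to 18915363 in control. These sums were 1.04 to 1.07 times the library size that FPKM was divided by in ACD, and 0.976 to 1.03 times in control. FPKM summed over all genes to 297035 to 313140 in ACD libraries and 279996 to 299956 in control libraries. Neuron markers such as Snap25 summed to 1167 to 1270 FPKM in ACD and 973 to 1222 in control libraries, and oligodendrocyte markers such as Mbp to 6922 to 8206 in ACD and 4588 to 6991 in control. Control 1 stood apart through brown fat RNA. Its 6 brown fat markers summed to 213 FPKM, against 3.65 to 5.30 in ACD libraries and 2.83 and 4.92 in the other control libraries. Ucp1, the uncoupling protein that defines brown fat, was at 51.8 FPKM in control 1, against 0 to 0.1 in ACD libraries and 0 in controls 2 and 3. Control 2 held the most skeletal muscle RNA, with 10 markers summing to 30.8 FPKM, against 2.37 to 3.36 in ACD and 5.09 to 7.17 in the other control libraries, and Tnnc2 at 0 in all 6. The 5 Schwann cell markers summed to 318 to 455 in ACD and 146 to 232 in control, and the 5 blood markers to 481 to 772 in ACD and 100 to 389 in control. The 7 astrocyte markers summed to 969 to 1039 in ACD and 753 to 868 in control, and the 6 microglia markers to 90.4 to 99.4 in ACD and 71.9 to 88.7 in control. The muscle, Schwann cell, blood, astrocyte and microglia sums did not overlap between the groups, and the part of any of these cell types in the results below was not tested. Gfap led the astrocyte sum, at 587, 533 and 608 FPKM in ACD and 382, 448 and 408 in control. Single markers went the other way, with means of 167 in ACD and 174 in control for Slc1a2, and 22.6 and 29.8 for Hba-a2. Each ACD value lay above each control value for 3 of 7 astrocyte, 3 of 6 microglia, 4 of 5 blood and 5 of 5 Schwann cell markers. Each lay below for 5 of 8 tested muscle markers. Of all genes tested, 13.1% had all ACD values above and 15.5% below. For protein-coding genes averaging 10 FPKM or more these shares were 31.5% and 4.35%. In bulk tissue, fewer cells of a type and less RNA per cell cannot be told apart.

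A minority of the subunit genes were called higher in ACD cords, by modest amounts, and none was called lower. Of 85 genes with enough signal to test, 8 passed an adjusted p of 0.05 (limma over all 21369 genes tested), and all 8 were higher in ACD (9.41%). Of all genes tested 1.81% passed as higher and 2.53% as lower in ACD. Unadjusted, 40 subunit genes had p under 0.05 as higher and 0 as lower. The log2 fold change, ACD minus control, was above 0 for 74 of the 85, against 48.6% of all genes tested, and its median was 0.20, against -0.01 over all genes tested. In 42 of the 85 (49.4%) each ACD value lay above each control value, and in 0 each lay below. Among all genes tested those shares were 13.1% and 15.5%.

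The background depended on the level of the gene and, as given below, on its exon length. Of 4596 protein-coding genes that averaged 10 FPKM or more, a level that 77 of the subunit genes reached, 4.31% were called higher and 1.00% lower, and 78.4% had a fold change above 0. The ACD values lay above all control values for 31.5% of these 4596 genes and below for 4.35%, and their median log2 fold change was 0.11. The corresponding shares in the 77 subunit genes were 9.09% called higher, 0 lower, and 51.9% with all ACD values above, and 69 of the 77 had a fold change above 0. The subunit median of 0.20 had the same sign as that of abundant genes.

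Fewer of the 8 genes passed when any library except control 2 was left out. Their fold changes stayed between 0.38 and 0.72 over the 6 fits with 1 library fewer. Leaving out any single ACD library left 1 call among these 8, Atp5o. Leaving out control 1 left 3 of the 8, Atp5o, Cox6a1 and Ndufb6 (0.593% of all genes were then called higher), and the median was 0.22. Leaving out control 3 left 6 of the 8, and leaving out control 2 left all 8. Over all genes the calls fell to 276, 287 and 181 without ACD 1, 2 and 3, and to 280 without control 1, against 927 with all libraries. Set against controls 2 and 3 alone, 51 of the 85 subunit genes (60.0%) had all ACD values above, against 17.8% of all genes tested and 36% of the protein-coding genes at 10 FPKM or more. Within the groups, ACD 3 was the lowest ACD library for 53 of the 85 genes and control 3 the lowest control library for 59.

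**Figure D1:**
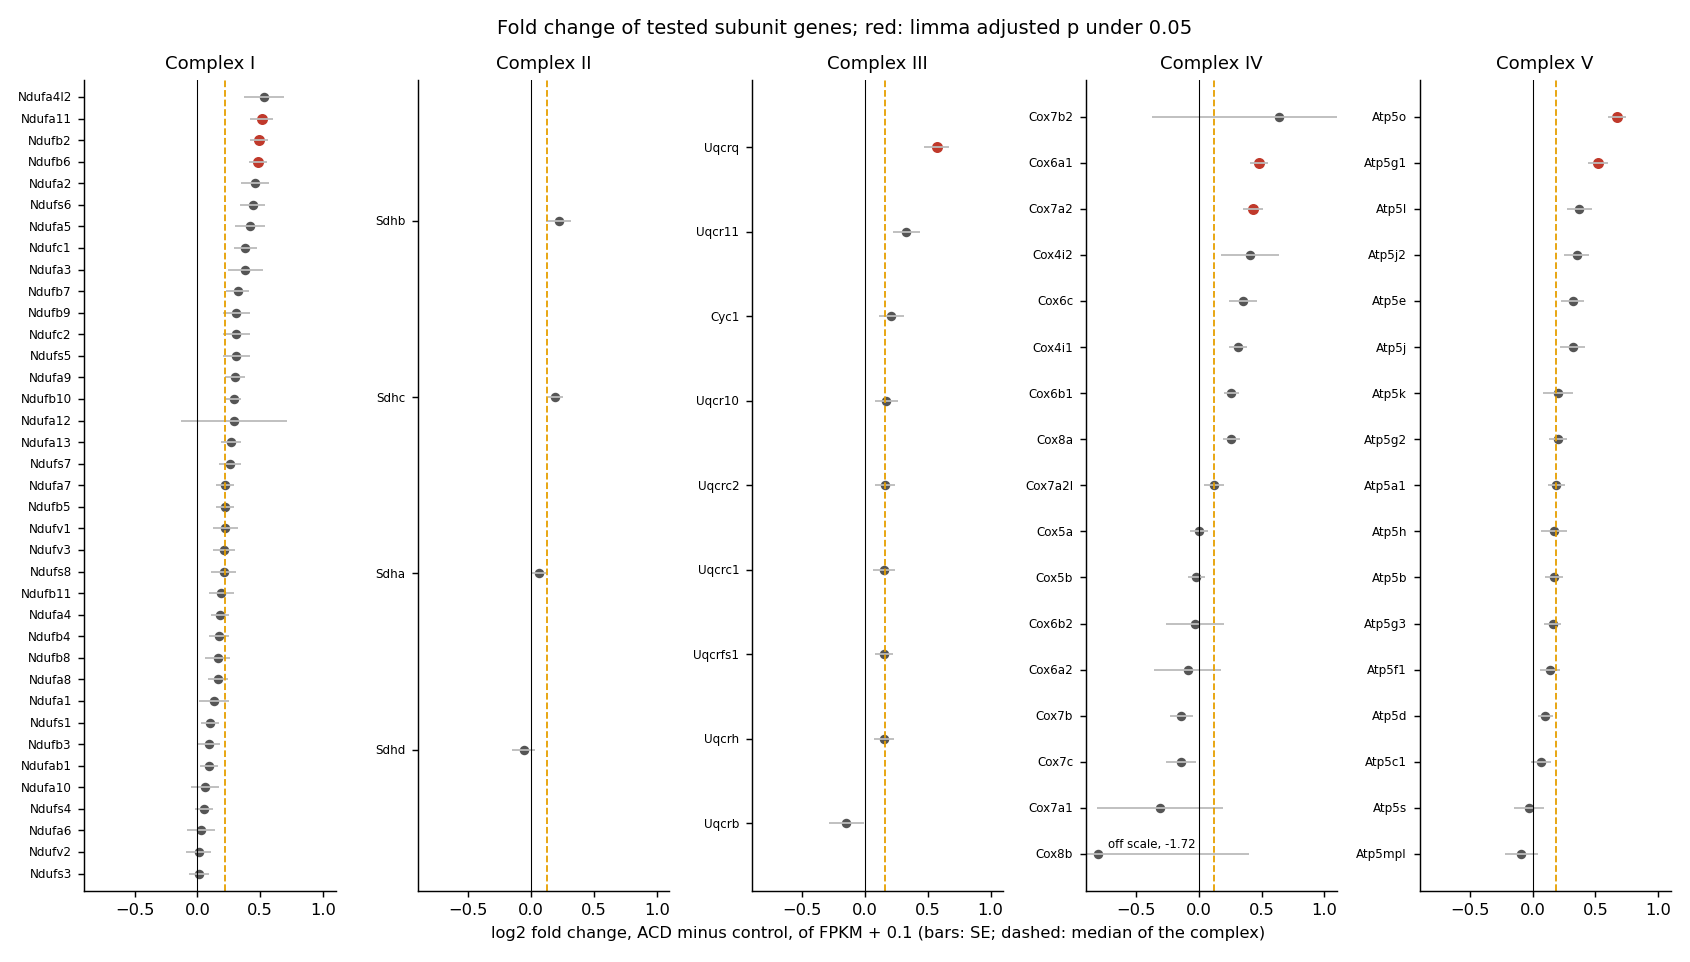
Log2 fold change, ACD minus control, of the tested subunit genes, 1 panel per complex, with 1 gene of complex I not drawn, with bars for the SE and a dashed line at the median of the complex. The 8 genes past an adjusted p of 0.05 are red and all lie right of 0, complex I has no point left of 0, and Cox8b in complex IV lies off the scale at -1.72 with a wide error.

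Summed over its subunit genes, each complex had a higher mean FPKM in ACD cords, complex II by the least and not under TPM scaling. Complex I genes summed to 2836, 2760 and 2593 FPKM in ACD 1 to 3, against 2332, 2407 and 2149 in control 1 to 3, a ratio of means of 1.19. Complex IV summed to 2778, 2707 and 2604 in ACD and 2370, 2411 and 2128 in control, a ratio of 1.17. In both complexes the ACD sums lay above all control sums. Complex III summed to 1049, 1029 and 962 in ACD and 935, 921 and 810 in control, a ratio of 1.14. Complex V summed to 1781, 1755 and 1661 in ACD and 1528, 1549 and 1492 in control, also a ratio of 1.14. These groups did not overlap either. Complex II summed to 316, 320 and 313 in ACD and 323, 294 and 284 in control, a ratio of 1.05, and there control 1 was the highest of all 6 libraries. Scaled to the same total per library (TPM), the ratio was 1.11, 1.07, 1.09 and 1.06 for complexes I, III, IV and V. Complex II turned to 0.983 on that scale, with 1014, 1022 and 1054 TPM in ACD and 1155, 981 and 1008 in control, and the complex III groups overlapped. The sums carry no test, since each is led by a few abundant genes.

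**Figure D2:**
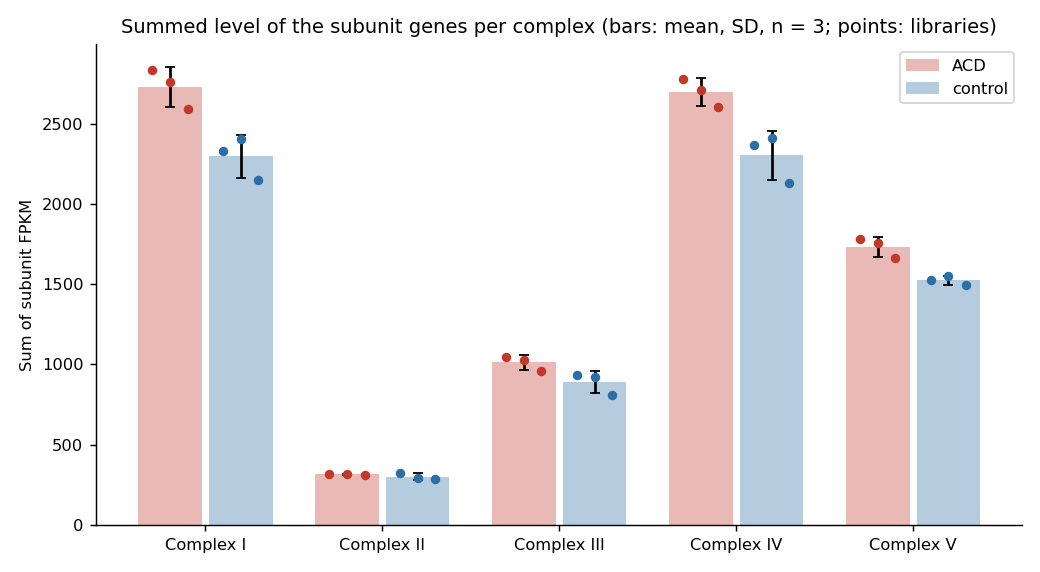
Sum of FPKM over the subunit genes of each complex, with bars for the mean and SD of 3 libraries and a point for each library. ACD points lie above all control points in complexes I, III, IV and V, and overlap with them in complex II, where the means were 316 in ACD and 301 in control and turn to 1030 TPM in ACD and 1048 TPM in control when each library has the same total; complex III overlaps on that scale.

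In complex I, the NADH dehydrogenase, all 38 genes had a fold change above 0 (0.01 to 0.53, median 0.22), and 3 were called higher. The ACD values lay above all control values in 21 of the 38 (55.3%), against 13.1% of all genes tested and 31.5% of protein-coding genes at 10 FPKM or more. The 3 calls are 7.89% of the 38, against 1.81% and 4.31% called higher in these backgrounds. The median exon length of the 38 was 1532 bases. Of protein-coding genes at 10 FPKM or more with 1000 to 2000 bases, 46.4% had all ACD values above and 9.92% were called higher. The 3 called genes are accessory subunits of the membrane arm. Ndufb2 was at 6.05, 6.20 and 6.77 FPKM in ACD 1 to 3 and 4.54, 4.41 and 4.47 in control 1 to 3. The ACD values sat apart from a narrow control range. Ndufb2 lies on chromosome 6 at 39592574 to 39603382 (GRCm38), and its log2 fold change was 0.49 (SE 0.07, adjusted p = 0.0207). Ndufb6 was at 104, 102 and 106 FPKM in ACD and 81.4, 70.1 and 71.9 in control, again without overlap. Its log2 fold change was 0.48 (SE 0.07, adjusted p = 0.0216), on chromosome 4 at 40270591 to 40279421. Its exons overlap Smim27 on the opposite strand and 34.4% of its 31-base words are shared with that gene, so part of its reads could belong to Smim27. Ndufa11, which also touches complex III in the respiratory supercomplex, was at 61.4, 61.1 and 58.7 FPKM in ACD and 37.3, 46.6 and 43.4 in control. Control 1 was the lowest library. Its log2 fold change was 0.51 (SE 0.09, adjusted p = 0.0289), on chromosome 17 at 56717767 to 56722141, and 12.8% of its words are shared with other genes.

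The catalytic core of complex I, which carries the flavin, the iron-sulfur clusters and the ubiquinone site, had a lower median than the accessory subunits, a difference that was not tested. Its 7 genes, which include Ndufv1 for the flavin-binding subunit, had fold changes of 0.01 to 0.26 with a median of 0.21, and 0 were called. The 31 accessory genes had a median of 0.29 (0.03 to 0.53), and 3 were called. Control 1 was the highest control library for 5 of the 7 core genes (71.4%) and for 7 of the 31 accessory genes (22.6%). That held for 33.3% of all genes tested and 20.2% of protein-coding genes at 10 FPKM or more. The median exon length was 2178 bases in the core and 1251 in the accessory genes, and its part in the medians was not tested. Ndufb10 and Ndufs6 came closest to the threshold without passing it. Ndufb10 was at 118, 112 and 116 FPKM in ACD and 94.6, 90.1 and 99.1 in control (adjusted p = 0.0525), without overlap. Ndufs6, a zinc-binding subunit, was at 76.7, 71.0 and 73.2 in ACD and 59.9, 57.1 and 46.8 in control (adjusted p = 0.0578), also without overlap.

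Ndufa4 had the highest level of the genes grouped here with complex I. It was named as a complex I subunit and later assigned to cytochrome c oxidase. It was at 212, 214 and 198 FPKM in ACD and 180, 197 and 172 in control, which do not overlap, with ACD 3 close to control 2 (log2 fold change 0.18, SE 0.07, adjusted p = 0.205). Its paralog Ndufa4l2, a hypoxia-induced gene, had the largest fold change of the group and a low level, at 3.95, 2.75 and 3.15 FPKM in ACD and 2.27, 2.56 and 1.90 in control. It did not pass (0.53, SE 0.16, adjusted p = 0.122), with 55 reads on average. Ndufa12, singled out after its values were seen, was at 73.0, 26.7 and 27.8 in ACD and 28, 24.1 and 43.9 in control. ACD 1 and control 3 were high and the groups overlapped, and 20.2% of its words occur in the processed pseudogene Gm15920. The other accessory genes were Ndufa1, Ndufa2, Ndufa3, Ndufa5, Ndufa6, Ndufa7, Ndufa8, Ndufa9, Ndufa10, Ndufa13, Ndufab1, Ndufb3, Ndufb4, Ndufb5, Ndufb7, Ndufb8, Ndufb9, Ndufb11, Ndufc1, Ndufc2, Ndufs4, Ndufs5 and Ndufv3. Their fold changes lay between 0.03 for Ndufa6 and 0.46 for Ndufa2, and none passed.

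Complex II, the succinate dehydrogenase, had the smallest ratio of summed levels, and 0 of its 4 genes were called. Sdha, the flavoprotein and the most abundant of them, was at 135, 140 and 139 FPKM in ACD and 139, 126 and 131 in control. The groups overlapped (log2 fold change 0.06, SE 0.06, adjusted p = 0.602), and the sign turned to -0.03 under TPM scaling. Sdhb, the iron-sulfur subunit, was at 61.8, 68.3 and 66.9 in ACD and 63.5, 57.6 and 48.9 in control, with control 1 inside the ACD range (0.22, SE 0.10, adjusted p = 0.266). Sdhd, a membrane anchor, was at 81.3, 74.6 and 73.3 in ACD and 88.2, 79.2 and 72.7 in control (-0.06, SE 0.09, adjusted p = 0.714). Control 1 was the highest library for Sdhd, and without it the fold change was 0.01. Sdhc, the other anchor, was at 37.8, 37.1 and 34.2 in ACD and 32.6, 31.6 and 31.4 in control, and was the only gene of the 4 without overlap (adjusted p = 0.146). All 4 were higher in control 1 than in controls 2 and 3. Of all genes tested, 33.3% were highest in control 1 among the controls.

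In complex III, the cytochrome bc1 complex, 8 of 9 genes had a fold change above 0 (median 0.16, range -0.15 to 0.57), and Uqcrq was called. That is 11.1% of the 9, against 1.81% of all genes tested and 4.31% of protein-coding genes at 10 FPKM or more. All ACD values lay above all control values in 4 of the 9 (44.4%), against 13.1% and 31.5%. The median exon length of the 9 was 1363 bases. Of protein-coding genes at 10 FPKM or more with 1000 to 2000 bases, 46.4% had all ACD values above and 9.92% were called higher. Uqcrq, a small accessory subunit, was at 88.6, 90.6 and 86.4 FPKM in ACD and 63.6, 65.8 and 50.8 in control. The groups did not overlap and control 3 was the lowest. Its log2 fold change was 0.57 (SE 0.10, adjusted p = 0.0327), on chromosome 11 at 53427922 to 53430831, and 0% of its words are shared with other genes. The 2 nuclear catalytic subunits, the Rieske protein gene Uqcrfs1 and Cyc1 for cytochrome c1, had fold changes of 0.15 and 0.21. The 2 core protein genes, Uqcrc1 and Uqcrc2, had 0.15 and 0.16, and none of these 4 passed. Uqcr10, the most abundant gene of the complex, was at 195, 179 and 172 FPKM in ACD and 166, 176 and 145 in control (0.17, SE 0.09, adjusted p = 0.329), with ACD 3 below control 2. Uqcrb was the only gene of the complex below 0, at 88.3, 90 and 66.6 in ACD and 100, 89.7 and 80.4 in control (-0.15, SE 0.14, adjusted p = 0.557). The groups overlapped, 34.8% of its words are shared with other genes including several processed pseudogenes, and the sign turned to 0.09 in the fit with exon length and GC trends removed. Uqcr11 and Uqcrh had fold changes of 0.33 and 0.15 and did not pass.

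In complex IV, cytochrome c oxidase, the fold changes had the widest spread of the 5 complexes (-1.72 to 0.64), with 10 of 17 tested above 0 and a median of 0.12. Cox6a1 and Cox7a2 were called, 11.8% of the 17, against 1.81% of all genes tested and 4.31% of protein-coding genes at 10 FPKM or more. All ACD values lay above all control values in 6 of the 17 (35.3%), against 13.1% and 31.5%, so that share was near that of abundant genes. Cox6a1, the isoform of subunit VIa used in most tissues, was at 565, 535 and 551 FPKM in ACD and 415, 401 and 367 in control. The lowest ACD value was far above the highest control value, and the log2 fold change was 0.48 (SE 0.07, adjusted p = 0.0207). The gene is on chromosome 5 at 115345642 to 115348981, and 18.5% of its words occur in the transcribed pseudogene AC148174.2. Cox7a2, the isoform of subunit VIIa used in most tissues, was at 151, 155 and 150 FPKM in ACD and 107, 126 and 106 in control. Control 2 was the highest control and still below every ACD value (0.43, SE 0.08, adjusted p = 0.0384). Cox7a2 is on chromosome 9 at 79755361 to 79759878, and 3.4% of its words are shared. Cox8a, the most abundant subunit gene of all, was at 625, 617 and 596 FPKM in ACD and 510, 538 and 483 in control, without overlap, and did not pass (0.26, SE 0.07, adjusted p = 0.0820).

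The other general subunits of complex IV did not move together. Cox4i1, with 407, 388 and 371 FPKM in ACD and 322, 322 and 298 in control, did not overlap and missed the threshold (0.31, SE 0.07, adjusted p = 0.0572). Cox6b1 and Cox6c had fold changes of 0.26 and 0.35 and groups that did not overlap, and neither passed. Cox5a, Cox5b, Cox7b and Cox7c had fold changes of 0.00, -0.02, -0.14 and -0.14, with overlapping groups. Cox7a2l, a factor that joins complexes III and IV, had 0.12. The 17 tested genes thus ranged from groups that separated to groups that overlapped within a single enzyme. Leaving out control 3, the lowest library, moved the median of the complex to 0.01, and leaving out control 1 moved it to 0.26.

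**Figure D3:**
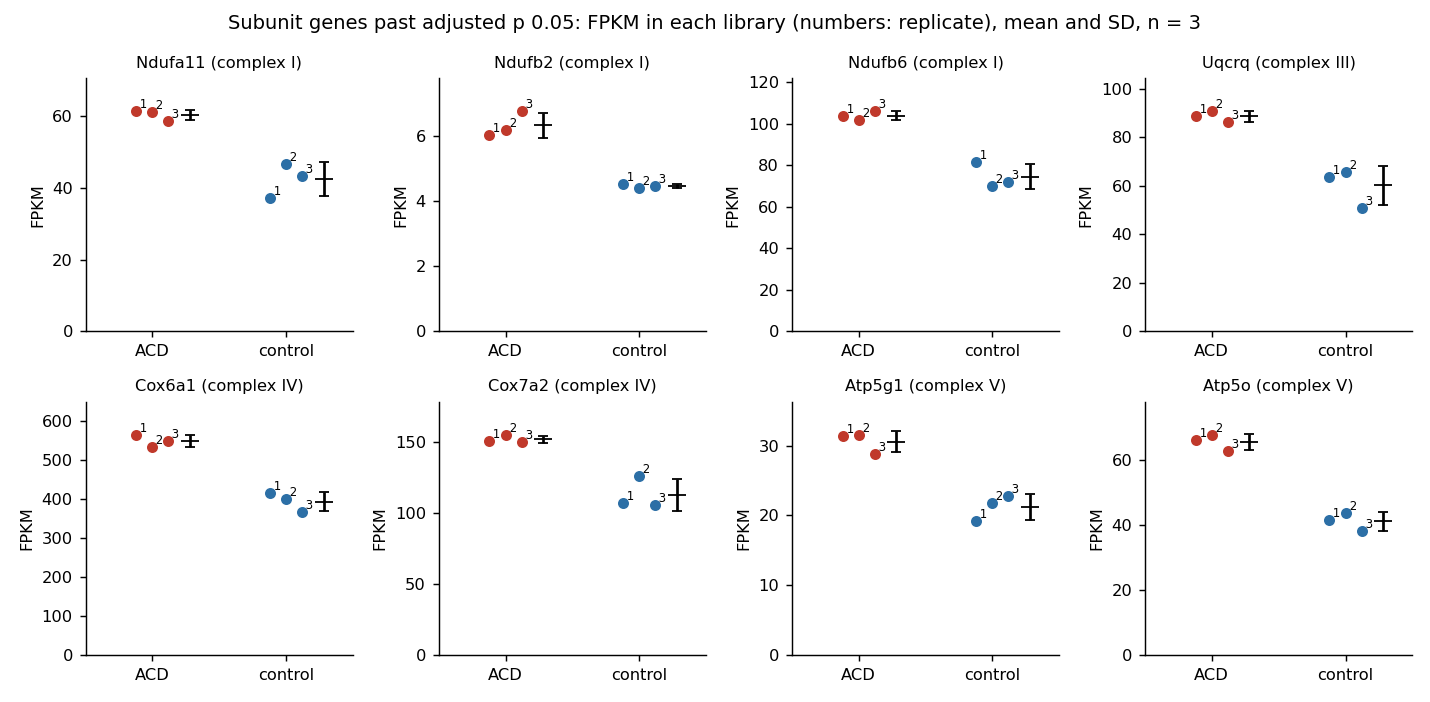
FPKM of the 8 subunit genes past an adjusted p of 0.05 in each library, with the replicate number beside each point and the mean and SD of 3 libraries, on axes that start at 0. In every panel the 3 ACD points lie above the 3 control points, at 6.05 to 6.77 FPKM in ACD and 4.41 to 4.54 in control for Ndufb2, the lowest of them, and at 535 to 565 in ACD and 367 to 415 in control for Cox6a1, the highest.

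Among the tissue-restricted isoforms of complex IV, Cox8b and Cox7a1 peaked in the library with brown fat RNA. Cox8b, a muscle and brown fat isoform of subunit VIII, was at 2.72, 1.51 and 2.43 FPKM in ACD and 58.0, 4.04 and 1.6 in control. Control 1 alone was high and the groups overlapped (log2 fold change -1.72, SE 1.20, adjusted p = 0.454). Cox8b made up 10.2% of the summed Cox8a and Cox8b level in control 1, against 0.244% to 0.434% in ACD and 0.330% and 0.745% in controls 3 and 2. Cox7a1, the muscle and brown fat isoform of subunit VIIa, was at 14.4, 9.05 and 8.69 in ACD and 29.5, 9.96 and 7.33 in control (-0.31, SE 0.50, adjusted p = 0.761). Control 1 was again the highest, ACD 1 was next, and without control 1 the fold change turned to 0.29. Cox7a1 made up 21.6% of the summed Cox7a1 and Cox7a2 level in control 1, against 5.48% to 8.75% in ACD and 6.45% to 7.30% in controls 2 and 3. With Cox8b and Cox7a1 left out, the summed level of complex IV was 2683 ± 84.8 in ACD and 2266 ± 140 FPKM in control (SD, n = 3 each), a ratio of 1.18.

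Cox6a2, the heart and muscle isoform of subunit VIa, was at 2.46, 1.67 and 1.29 FPKM in ACD and 1.65, 2.53 and 1.53 in control, with no excess in control 1 and overlapping groups. Cox4i2, the isoform of subunit IV linked to low oxygen, was at 1.68, 3.01 and 2.22 in ACD and 2.03, 1.64 and 1.39 in control (log2 fold change 0.41, SE 0.23, adjusted p = 0.339). The testis isoform Cox6b2 was at 1.98, 1.52 and 2.52 in ACD and 2.45, 2.19 and 1.51 in control. All 3 overlapped between the groups. Cox7b2, another testis isoform, rested on 4 reads on average, at 0, 0.911 and 0.706 FPKM in ACD and 0.436, 0.298 and 0 in control (0.64, SE 1.01, adjusted p = 0.750). Cox8c was below the filter and was not tested. The signs of Cox6a2, Cox6b2 and Cox7b2 each turned under at least 1 of the alternatives.

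**Figure D4:**
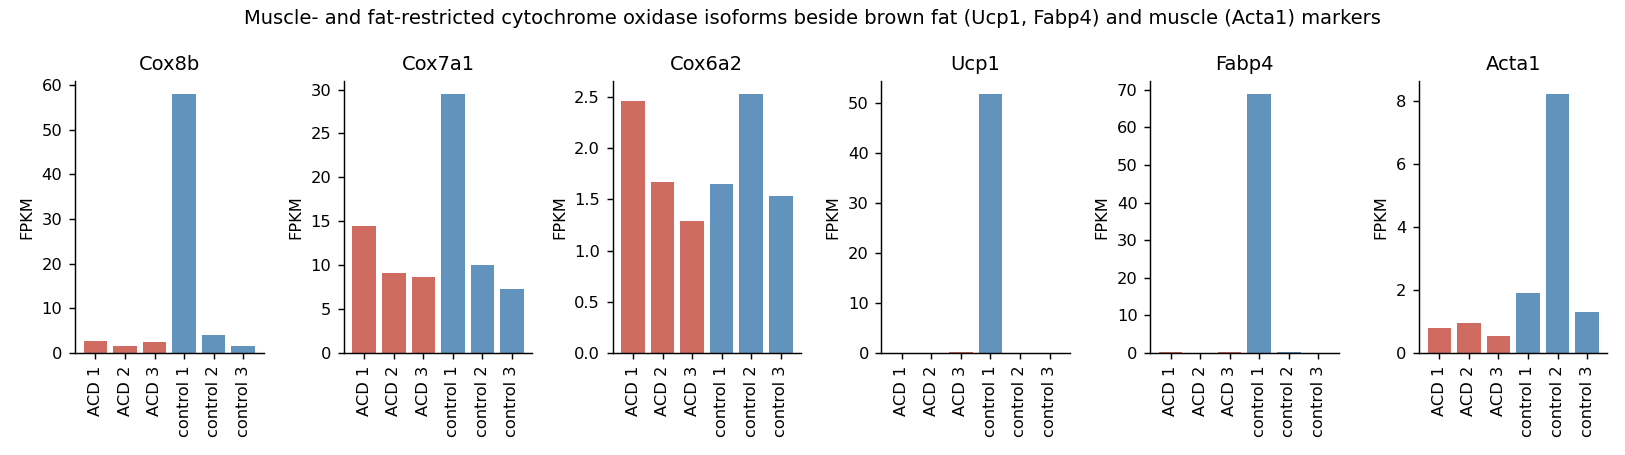
FPKM of Cox8b, Cox7a1 and Cox6a2 in each library, beside the brown fat markers Ucp1 and Fabp4 and the skeletal muscle marker Acta1, with 1 bar per library and each axis starting at 0. Cox8b and Cox7a1 peak in control 1 at 58.0 and 29.5 FPKM, the library where Ucp1 is at 51.8, while Acta1 peaks in control 2 at 8.23.

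In complex V, the ATP synthase, 15 of 17 tested genes had a fold change above 0 (median 0.19, range -0.09 to 0.67), 10 had all ACD values above all control values (58.8%, against 13.1% of all genes and 31.5% of abundant protein-coding genes), and Atp5o and Atp5g1 were called. The 2 calls are 11.8% of the 17, against 1.81% of all genes and 4.31% of abundant protein-coding genes called higher. The median exon length of the 17 was 2039 bases. Of abundant protein-coding genes of 1000 to 2000 bases, 46.4% had all ACD values above and 9.92% were called higher. From 2000 to 4000 bases these shares were 38.5% and 4.55%. Atp5o encodes the oligomycin sensitivity conferring protein, which joins the catalytic head to the peripheral stalk. It was at 66.1, 67.6 and 62.6 FPKM in ACD and 41.6, 43.7 and 38.0 in control. The groups were wide apart, and its log2 fold change of 0.67 (SE 0.07, adjusted p = 0.00923), a 1.59-fold difference, was the largest of all 85 genes. It was also the only call that held in each of the 6 fits that left out 1 library. Its locus is chromosome 16 at 91925214 to 91931687. Of its words 49.6% occur in other genes, among them the antisense genes Gm15976 and D430001F17Rik and the processed pseudogene Gm5436. Its exons overlap both antisense genes, and whether counting used strand is not given in the sources used here, so reads of these genes and of Atp5o cannot be told apart. The identifier set holds Atp5o a second time as a read-through locus, listed at 0 in all 6 libraries and not tested.

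Atp5g1 is 1 of 3 genes that encode the same mature c subunit of the proton-driven ring. It was at 31.4, 31.5 and 28.8 FPKM in ACD and 19.2, 21.7 and 22.8 in control. The groups did not overlap (0.52, SE 0.08, adjusted p = 0.0224). Its locus is chromosome 11 at 96068852 to 96075670, and 14.1% of its words are shared. Its share of the summed level of the 3 c subunit genes was 15.6%, 16.2% and 15.7% in ACD and 12%, 12.8% and 13.6% in control, again without overlap. Atp5g2 and Atp5g3 had fold changes of 0.20 and 0.16 with ACD values above all control values, and neither passed. Atp5g3 made up most of the sum, at 60.2% to 62.4% in ACD and 63.1% to 64.8% in control.

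The catalytic head of complex V had the lowest median among its parts. Atp5b, the catalytic beta subunit and the most abundant gene of the complex, was at 363, 368 and 357 FPKM in ACD and 339, 302 and 326 in control, without overlap (0.17, SE 0.07, adjusted p = 0.201). The 5 head genes Atp5a1, Atp5b, Atp5c1, Atp5d and Atp5e had a median of 0.17 (0.07 to 0.32), and 0 were called. The tested genes of the peripheral stalk, Atp5f1, Atp5h, Atp5j and Atp5o, had a median of 0.24 (0.14 to 0.67). The membrane accessory genes Atp5j2, Atp5k, Atp5l and Atp5mpl had a median of 0.27 (-0.09 to 0.37). Atp5mpl, a small membrane proteolipid, was the lowest, at 96.0, 82.2 and 71.4 in ACD and 80.6, 101 and 84.0 in control (-0.09, SE 0.13, adjusted p = 0.720). Its groups overlapped, and its sign turned to 0.01 without ACD 3 or without control 2. Atp5s, a coupling factor that is not a structural subunit, had -0.03.

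Exon length was considered because FPKM divides by it and because subunit transcripts are short. It was taken as the union of all annotated exons of a gene, which can exceed the length of any single transcript. The tested subunit genes had a median exon length of 1569 bases (360 to 8086), against 4302 for all protein-coding genes tested. Across all 15359 protein-coding genes, shorter genes tended to have higher fold changes (Spearman's rho -0.27 of exon length with log2 fold change, across genes that share the same 6 libraries). The shortest class went the other way, with a median of -0.25 for protein-coding genes under 500 bases, against 0.21 from 500 to 1000 bases. Among the 85 subunit genes rho was -0.05. The 8 called genes spanned 659 bases for Ndufb6 to 5628 for Ndufb2.

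Within a length class, the subunit genes from 500 to 2000 bases lay close to abundant protein-coding genes, here those averaging 10 FPKM or more. No limit on the level was set for the subunit genes at first. From 500 to 1000 bases the 20 subunit genes had a median of 0.29 and 15.0% were called higher, against 0.25 and 16.2% of 142 abundant genes. From 1000 to 2000 bases the 32 subunit genes had a median of 0.20 and 9.38% called, against 0.20 and 9.92% of 655 abundant genes. Those shares of calls are near their background. From 2000 to 4000 bases the 20 subunit genes had a median of 0.19 and 0% called, against 0.14 and 4.55% of 1583. Over 4000 bases the 11 subunit genes had a median of 0.17 and 18.2% called (Ndufb2 and Atp5g1), against 0.06 and 1.63% of 2202, and all ACD values lay above all control values for 63.6% of them, against 20.8%. A gene can reach this class through the union of its exons while its main transcript is short. The length of the transcripts present was not tested, so this class may not compare genes of like transcript length. With subunit genes held to 10 FPKM as well, 1 of 9 over 4000 bases was called (11.1%), since Ndufb2 falls below that level, with a median of 0.17 and all ACD values above in 66.7%. In the other classes the called shares were then 17.6%, 10% and 0%, from the shortest of the 3 to the longest. The shares with all ACD values above were 52.9%, 53.3% and 47.4% in the same order. For abundant protein-coding genes of these classes the shares were 50%, 46.4% and 38.5%. Under 500 bases there were 2 subunit genes, Ndufa1 and Cox8b, with fold changes of 0.13 and -1.72 and 0% called, against a median of 0.23 and 14.3% of 14 abundant genes.

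**Figure D5:**
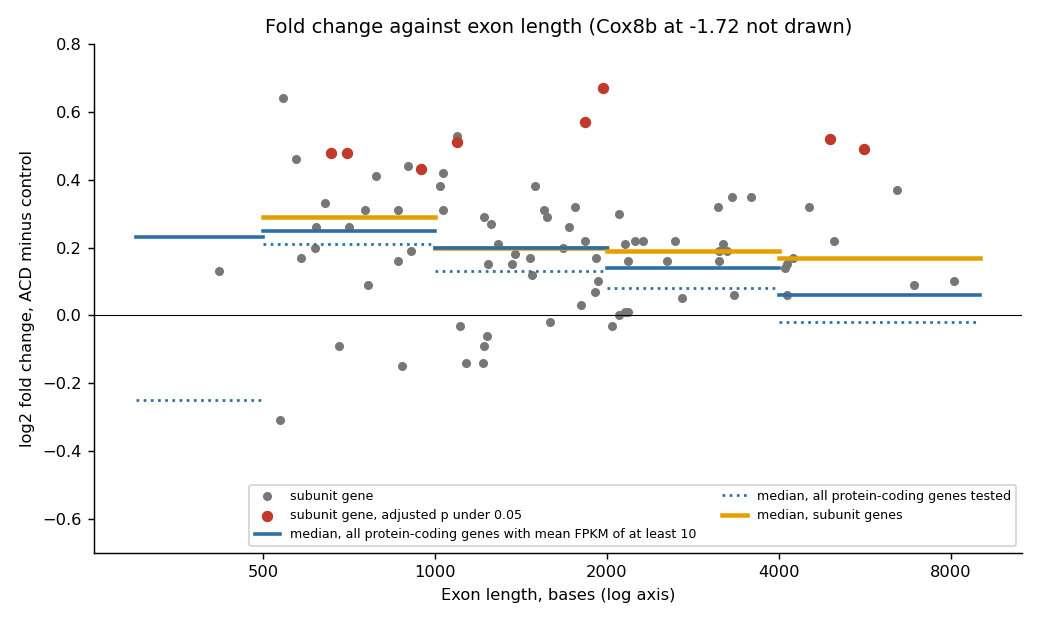
Log2 fold change, ACD minus control, against exon length in bases on a log axis for the tested subunit genes (points, red past an adjusted p of 0.05), with medians per length class of the subunit genes and of protein-coding genes. The line for abundant protein-coding genes runs from 0.25 at 500 to 1000 bases to 0.06 over 4000, while the subunit line runs from 0.29 to 0.17; Cox8b and the subunit median under 500 bases are not drawn.

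Removing a trend on exon length from each library kept all 8 calls and raised the count to 25 of the 85, against 3.45% of all genes called higher in the same fit. The trend was fitted over all genes tested, not over abundant protein-coding genes. Its removal raised the fold changes of short subunit genes, as for Cox8a (619 bases) from 0.26 to 0.45. Abundant protein-coding genes of 500 to 1000 bases had a median of 0.25. This fit therefore does not set the subunit genes beside abundant genes of like length. The median of the subunit genes was 0.26 in that fit, against 0.05 over all genes. Removing trends of both length and GC also gave 25 calls, all 8 among them, with a median of 0.24, where 4.11% of all genes were called higher. A fit with voom on recovered reads called 24 subunit genes and kept all 8, against 3.55% of all genes called higher. TPM scaling, which gives each library the same total, put the median of all genes at -0.10 and that of the subunit genes at 0.10. Under TPM scaling 63 of the 85 subunit genes were above 0, and 6 of the 8 calls were kept, without Ndufb2 and Ndufb6, against 0.959% of all genes called higher. With the replicate number as a block 1 of the 8 passed, Atp5o, against 0.402% of all genes called higher.

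Genes that work with the complexes were counted from lists by role. In the lists that follow, a share of called genes is to be read against the 1.81% of all genes and 4.31% of protein-coding genes at 10 FPKM or more called higher. Of 16 tested complex I assembly factors, 1 was called (6.25%), Timmdc1, a membrane factor for building complex I. It was at 14.3, 14.3 and 14.1 FPKM in ACD and 11.9, 11.4 and 11.2 in control (log2 fold change 0.31, SE 0.06, adjusted p = 0.0373). The groups did not overlap, and the median of the list was 0.13. No assembly factor was called among 4 for complex II, 6 for complex III, 20 for complex IV or 5 for complex V, with medians of 0.20, 0.11, 0.11 and 0.18. The smallest p in these lists belonged to Sdhaf4, Uqcc3, Coa3 and Fmc1, with adjusted p of 0.164, 0.102, 0.0520 and 0.178, each higher in ACD. Sdhaf4 was at 18.8, 20.0 and 19.0 FPKM in ACD and 13.5, 18.3 and 15.0 in control. Uqcc3 was at 21.1, 19.8 and 18 in ACD and 16.8, 16.4 and 15.9 in control. Fmc1 was at 27.0, 30.1 and 28.1 in ACD and 26.3, 23.4 and 18.8 in control. In these 3 genes and in Coa3 the groups did not overlap. Coa3 was at 77.2, 79.4 and 76.8 in ACD and 62.7, 65.8 and 56.4 in control.

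Outside the assembly factors, Mpc1, a subunit of the mitochondrial pyruvate carrier, was the only gene called. It was at 14.8, 16.2 and 15.3 FPKM in ACD and 11.4, 11.8 and 12.4 in control, without overlap (0.38, SE 0.07, adjusted p = 0.0316). It is 1 of 14 tested carriers and porins (7.14%), which had a median of 0.12. None of 16 citric acid cycle genes passed (median 0.05), and Mdh2 came closest at 76.4, 79.4 and 77.7 in ACD and 61.3, 57.1 and 69.7 in control (adjusted p = 0.0822). None of 17 glycolysis identifiers passed, with a median of 0.26 and Pgam1 closest, at 164, 167 and 171 in ACD and 134, 122 and 143 in control (0.33, adjusted p = 0.0562). None of 8 mitochondrial antioxidant genes passed, with a median of 0.05 and Glrx5, a factor of iron-sulfur cluster assembly, closest, at 26.7, 24.9 and 25.1 in ACD and 21.3, 18.8 and 16.6 in control (0.44, adjusted p = 0.0523). None of 15 electron carriers and regulators of mitochondrial biogenesis passed (median 0.01). In that list Ppargc1b, a coactivator of mitochondrial genes, had the smallest p and was at 1.6, 1.54 and 1.88 in ACD and 3.21, 1.93 and 2.56 in control (-0.57, SE 0.19, adjusted p = 0.142).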

How the data were processed

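RNA of 6 cervical spinal cords was sequenced, 3 per group, labelled as biological replicates. The authors deposited FPKM per Ensembl gene, 1 table per library. Per the submitters' processing notes, HISAT2 2.0.5, mm10, featureCounts 1.5.0-p3 and DESeq2 1.16.1 were used, without a role for each. The sources used here give no library kit, strandedness or annotation release. Of 54532 identifiers 54495 were found in GENCODE M21 (GRCm38, the build of mm10), which gave types, coordinates, exon lengths (the union of a gene's annotated exons) and the share of each gene's 31-base words found in other genes.

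Since FPKM are not counts, ACD and control were compared on log2(FPKM + 0.1) with limma 3.58.1 in R 4.3.3, using eBayes with its trend and robust options, over the 21369 genes averaging 0.1 FPKM or more. P-values were adjusted by Benjamini-Hochberg over all of them, at 0.05. This scale understates fold changes of low genes. Whole reads, within 0.05, were recovered for 96.9% of values above 0, and were used for depth and for an alternative fit with voom after normalization by trimmed means (TMM). A value of 0 allows, at a limit of 3 reads, up to 0.148 to 0.177 FPKM for a transcript of 1 kilobase, for counting error alone. Other alternatives were pseudocounts, filters, TPM scaling, removal of length and GC trends (splines with 5 degrees of freedom), a replicate block, leaving out each library and leaving out genes with over 10% shared words. The spread between libraries can include differences in handling, which were not tested.

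The subunit genes, related lists and naming rule were chosen with earlier results of these data known. Values in all libraries are given for each passing gene, for the highest, most raised and most lowered gene of each complex, for tissue-restricted isoforms, and, of each related list, for passing genes or the gene with the smallest p. Other genes with such values were chosen after they were seen, as were the limit of 10 FPKM, for the background and for subunit genes, and the sums per complex under TPM scaling. 1 subunit gene of complex I counts in the totals and is not reported here by name.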

Additional observations from a re-analysis of the deposited data

How the results depend on the processing

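The medians of complexes I, III and V stayed above 0 under every alternative run, and those of complexes II and IV did too, at 0.03 and 0.02 under TPM scaling. TPM scaling also lowered the medians of all subunit genes, complex I and complex V to 0.10, 0.13 and 0.09 and the complex I count to 1. Over all genes, 927 calls became 556 without a filter, 1701 with voom on recovered reads and 181 to 738 when 1 library was left out. The 8 subunit calls became 25 after removal of a length trend, 25 after removal of a length and GC trend, 24 with voom, 1 to 11 with 1 library left out and 3 among genes with at most 10% shared words. For complex I the count of 3 became 14, 13, 10, 0 to 4 and 1 under these settings, and 6 with a filter at 1 FPKM, and its median became 0.31 with the length trend removed. The complex III count of 1 became 3, 3 and 2 after removal of the length trend, of the length and GC trend and with voom, 0 without a filter and 0 to 1 with 1 library left out. For complex IV the count of 2 became 5, 5 and 6 in the same 3 fits, 1 without a filter, 0 to 3 with 1 library left out and 1 among genes with few shared words, and its median ranged over 0.01 to 0.26 with 1 library left out. The complex V count of 2 became 4 after removal of length and GC trends, 6 with voom, 1 to 3 with 1 library left out and 0 among genes with few shared words. Pseudocounts of 1 and 0.01 kept all 8 calls.

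Same-numbered ACD and control libraries did not deviate together (correlations across genes of -0.028, 0.015 and 0.003), so the numbers were not read as pairs. With the replicate number as a block, 181 of all genes passed and 1 subunit gene, Atp5o in complex V, with 0 in complexes I, III and IV. The block spends 2 of the 4 degrees of freedom left among 6 libraries, and its medians were those of the fit without it.

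Several small fold changes turned sign. Sdha was -0.03 under TPM scaling. With a length trend removed Cox6a2, Cox6b2 and Sdhd were at 0.08, 0.06 and 0.02, and with length and GC trends removed they were at 0.04, 0.01 and 0.01, with Uqcrb at 0.09. With 1 library left out, the ranges were -0.32 to 0.13 for Cox6a2, -0.23 to 0.14 for Cox6b2, -0.71 to 0.29 for Cox7a1, -0.13 to 0.01 for Sdhd, -0.20 to 0.01 for Atp5mpl and -0.09 to 1.70 for Cox7b2. None of these genes passed the test in any fit named here. Apart from the settings' own construction (fewer libraries or genes, another scale), the causes of these moves were not tested. With 3 libraries per group, the number of mice and the depth of low isoforms limit the precision.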

Other observations

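The 13 subunits encoded in mitochondrial DNA lie outside the nuclear genes and were looked at after their values were seen. They did not move together. The abundant transcripts mt-Co1, mt-Cytb, mt-Nd1, mt-Nd2, mt-Nd4 and mt-Nd5 overlapped between the groups, with log2 fold changes of -0.18 to -0.04. mt-Co1, the catalytic subunit of complex IV, was at 15149, 16063 and 12802 FPKM in ACD and 14790, 17000 and 13414 in control. mt-Nd3 and mt-Nd6 overlapped too.

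Of the 13, 3 were called higher (23.1%), against 1.81% of all genes tested and 4.31% of protein-coding genes at 10 FPKM or more. mt-Atp6, a proton channel subunit of complex V, was at 510, 486 and 500 FPKM in ACD and 160, 102 and 84.1 in control (log2 fold change 2.16, SE 0.21, adjusted p = 0.00869). mt-Co3 was at 256, 370 and 244 in ACD and 62.9, 91.0 and 52.4 in control (2.09, SE 0.23, adjusted p = 0.0108). mt-Co2 was at 499, 385 and 466 in ACD and 162, 166 and 270 in control (1.21, SE 0.21, adjusted p = 0.0283). The groups did not overlap in any of the 3, nor in mt-Atp8 and mt-Nd4l, which did not pass. Of the words of mt-Atp6, mt-Co3 and mt-Co2, 99.5%, 99.9% and 100% occur in other genes of the annotation, against 6.55% for mt-Cytb and 0% for mt-Nd1. mt-Nd4l shares 98.9% and had a fold change of 1.69 (SE 0.46, adjusted p = 0.0956), while mt-Nd3 shares 98.1% and had 0.02. mt-Atp8 shares 7.47% and had 1.76 (SE 0.42, adjusted p = 0.0664), at 35.6, 24.2 and 23.0 FPKM in ACD and 7.24, 15.0 and 4.52 in control. The sources used here do not say how reads that match several places were counted, and the part of such reads in these values was not tested.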
